A study of Mus musculus with 2116 samples.

Results

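Lymphocytes are steered between blood, lymphoid organs and tissue by G-protein coupled receptors for chemokines and lipids. The 9 genes described here are 8 such receptors and 1 transcription factor of the same circuit, out of 23725 genes in a table of single mouse spleen cells, and they were taken as a named list: Ccr7, S1pr1, Klf2, Cxcr3, Cxcr4, Cxcr5, Cxcr6, Ccr4 and Ccr6. Ccr7 binds the chemokines CCL19 and CCL21 and brings T cells into the T zone, while S1pr1 senses sphingosine-1-phosphate and lets them leave again. Klf2 is a Krüppel-like zinc finger factor of resting T cells that is known to drive S1pr1. Cxcr3, Cxcr6, Ccr4 and Ccr6 are receptors through which activated T cells reach inflamed or barrier tissues, Cxcr5 leads cells towards B cell follicles, and Cxcr4 binds CXCL12 of stroma and bone marrow. Ccr7, S1pr1 and Klf2 are called the lymphoid set below, and Cxcr3, Cxcr6, Ccr4 and Ccr6 the tissue set.

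The regulatory T cells (Treg, 816 cells) and the conventional CD4+ T cells (Tconv, 1300 cells) both came from spleens of male mice aged 8 months of the strain B6 Foxp3-Ires-Gfp, in which green fluorescent protein (GFP) reports Foxp3. The labels give no treatment and do not say how many mice were used. Live CD4+ cells with a T cell receptor were sorted, and the protocol gives GFP+ as the gate without a separate one for Tconv. Their mRNA was counted with inDrops, in which each captured mRNA molecule carries a unique molecular identifier (UMI). Foxp3, the transcription factor that defines Treg, counted 558 UMIs in Treg against 6 in Tconv.

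With 1 library per group, differences between Treg and Tconv have no replicate check, and no p-value is given. The Treg library held 1468203 UMIs with a median of 1688.5 per cell, and the Tconv library 2002752 with a median of 1510.5. Levels are UMIs per 1000000 UMIs of the library (CPM). All intervals are exact, at 95%, and cover only counting error. They are too narrow, because UMIs of a gene were clumped in cells: the variance of S1pr1 UMIs over their mean was 2.25 in thinned Treg cells and 1.81 in thinned Tconv cells, where independent counts give 1. Cells with at least 3 UMIs of a marker list of another cell type made up 6.86% of Treg and 2.38% of Tconv, and 12 cell barcodes occurred in both libraries. The T lineage list stood at 5636 CPM in Treg and 5986 CPM in Tconv, and the Treg list at 3743 CPM in Treg and 298 CPM in Tconv. Of other types, the B cell list stood at 715 CPM in Treg and 191 CPM in Tconv, the myeloid list at 502 CPM in Treg and 281 CPM in Tconv, and the plasmacytoid dendritic list at 296 CPM in Treg and 184 CPM in Tconv. The plasma cell list stood at 50.4 CPM in Treg and 232 CPM in Tconv, and the CD8 or NK list at 64.7 CPM in Treg and 79.4 CPM in Tconv. Erythroid and platelet lists counted 222 and 16 UMIs in Treg, against 0 and 4 UMIs in Tconv.

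Of the 9 genes, 8 had at least 20 UMIs in both libraries together, the minimum for a count at 2-fold. Cxcr5 was at least 2-fold higher in Treg, which is 1 of 8, where 8.61% of all 8988 genes above the same minimum were. Ccr7 and Cxcr6 were at least 2-fold lower in Treg, 2 of 8, where 3.60% of all genes were. S1pr1, Klf2, Cxcr3, Cxcr4 and Ccr4 lay between these limits. The median log2 ratio, Treg over Tconv, was -0.11 over the 8 genes and 0.14 over all 8988. Ccr6 was below the minimum.

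**Figure D1:**
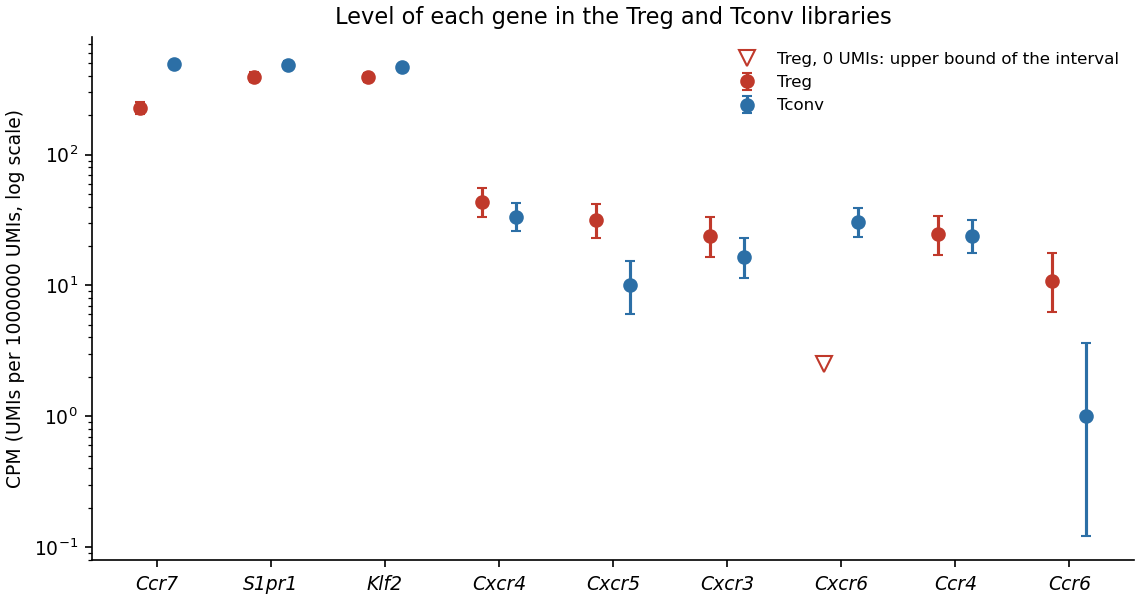
Level of each gene in CPM on a log axis, Treg left of Tconv; points are library sums, bars exact 95% Poisson intervals, and the open triangle is the upper bound of the interval, 2.51 CPM, for Cxcr6 in Treg, where no UMI was counted. Ccr7, S1pr1 and Klf2 lie between 227 and 491 CPM in both libraries, and every other gene lies at or below 43.6 CPM.

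Sequences just upstream of the RefSeq gene start (GRCm38.p6) are shown for Klf2, the regulator in the lymphoid set, and for Cxcr6, the receptor with no UMI in Treg. Capitals mark CACCC or its reverse complement GGGTG, the core recognised by Krüppel-like factors, searched on both strands in 250 bases. Klf2 is at chr8:72318812-72319061, plus strand, and Cxcr6 at chr9:123806227-123806476, plus strand.
Klf2: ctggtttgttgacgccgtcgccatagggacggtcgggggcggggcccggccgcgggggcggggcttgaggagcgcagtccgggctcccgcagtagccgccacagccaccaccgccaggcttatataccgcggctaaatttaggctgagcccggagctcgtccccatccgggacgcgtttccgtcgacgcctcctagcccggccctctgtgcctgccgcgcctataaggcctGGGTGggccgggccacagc
Cxcr6: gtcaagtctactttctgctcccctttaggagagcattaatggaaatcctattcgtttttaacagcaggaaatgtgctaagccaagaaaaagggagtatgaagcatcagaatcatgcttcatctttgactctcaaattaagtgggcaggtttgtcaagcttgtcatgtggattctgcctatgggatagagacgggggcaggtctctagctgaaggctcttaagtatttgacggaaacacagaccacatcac
The Klf2 stretch is 71.2% G or C and has 1 match, 19 bases before the RefSeq start, and the Cxcr6 stretch is 43.6% G or C with no match. The Klf2 start in the annotation used for gene positions below, 72319033, lies before this match. By that annotation the match is inside the gene. The median promoter of the RefSeq table is 52.4% G or C. Among the 7 promoters found for 6 of the 9 genes, 3 held the core, those of Klf2, Cxcr4 and Ccr4, where 52.0% of all 32851 promoters did. Ccr7, S1pr1 and Cxcr5 have no sequence shown.

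Ccr7 (chromosome 11, 99144196 to 99155077, minus strand, GRCm38) was the lymphoid homing receptor with the largest gap between the libraries. It had 334 UMIs in 209 Treg cells and 983 UMIs in 599 Tconv cells. This is 227 CPM in Treg (204 to 253) and 491 CPM in Tconv (461 to 522), so Ccr7 was 2.16-fold lower in Treg (1.90 to 2.45). The log2 ratio was -1.11 (-1.29 to -0.93), at the 2.97th percentile of all genes measured. With every cell thinned to 1000 UMIs, so that depth is equal, 17.5% of Treg cells (14.8 to 20.4), against 35.7% of Tconv cells (32.9 to 38.6) held a Ccr7 UMI. Unthinned, the shares were 25.6% in Treg and 46.1% in Tconv. Among cells that passed 3 UMIs on the myeloid list, 1 of 19 in Treg (median 1561 UMIs) and 1 of 11 in Tconv (median 1870.0 UMIs) held one. Thinning to 500 UMIs ended the 2-fold call, with a log2 ratio of -0.77.

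S1pr1 (chromosome 3, 115710433 to 115715072, minus strand) was less different. Its 574 UMIs in Treg and 967 in Tconv came to 391 CPM in Treg (360 to 424) and 483 CPM in Tconv (453 to 514). The log2 ratio was -0.30 (-0.46 to -0.15). The share of thinned cells with an S1pr1 UMI was 21.8% in Treg (18.9 to 25.0) and 30.4% in Tconv (27.7 to 33.2). Treg cells that held S1pr1 held more of it: 2.63 UMIs per positive cell in Treg and 1.94 in Tconv, before thinning. With at most 1 UMI counted per cell the log2 ratio was -0.75, while the median of all genes moved from 0.14 to -0.14. Part of this change was thus common to all genes. The size of the S1pr1 difference depended on how cells with several UMIs were counted.

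Klf2 (chromosome 8, 72319033 to 72321656, plus strand) counted 570 UMIs in Treg and 931 in Tconv, which are 388 CPM in Treg (357 to 421) and 465 CPM in Tconv (435 to 496). The log2 ratio was -0.26 (-0.41 to -0.11). Thinned cells with a Klf2 UMI made up 27.4% of Treg (24.2 to 30.7) and 30.3% of Tconv (27.6 to 33.1), with overlapping intervals. Klf2 was also seen in cells with markers of other types. In the Treg library 11 of the 22 cells with B cell markers and 8 of the 19 with myeloid markers held it, against 34.3% of cells marked by none. In the Tconv library 2 of 10 and 3 of 11 such cells held it, against 39.8% of cells marked by none. Without cells of other types the Klf2 log2 ratio was -0.29.

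Summed, the lymphoid set counted 1478 UMIs in Treg and 2881 in Tconv, with the log2 ratio at -0.51 (-0.61 to -0.42). When ribosomal protein genes, which made up 26.1% of the Treg library and 32.6% of the Tconv library, were left out of the totals, the median of all genes moved to 0.01. With TMM factors, another scaling, it was -0.02. The 3 lymphoid genes stayed lower in Treg under both scalings, and without ribosomal protein genes their ratios were -1.24 for Ccr7, -0.44 for S1pr1 and -0.39 for Klf2.

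**Figure D2:**
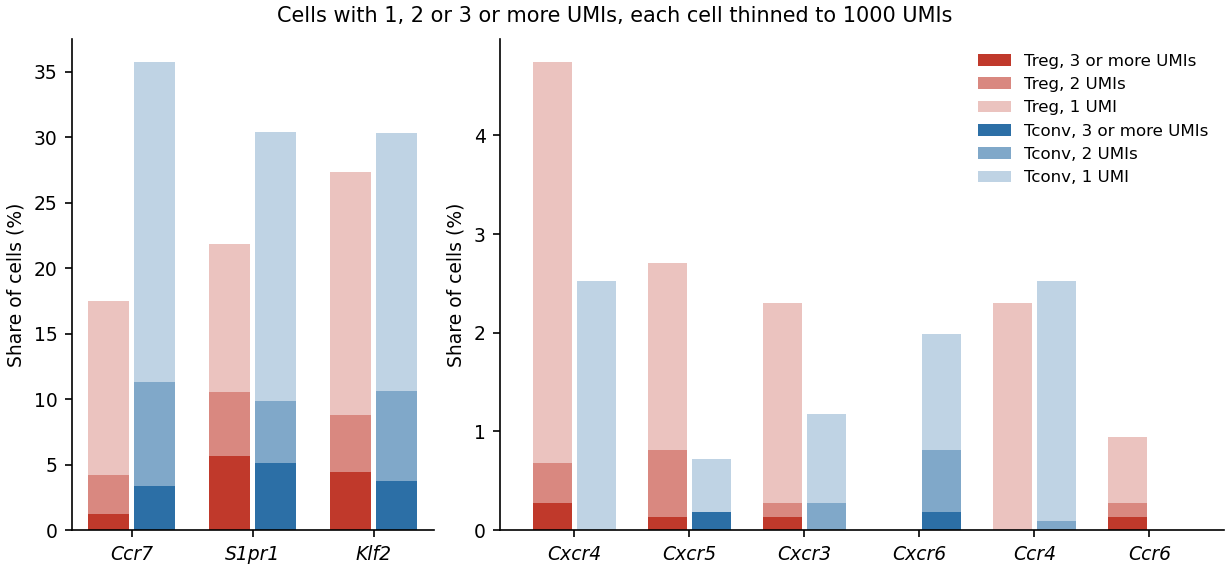
Share of cells, in percent, with 1, 2 or 3 or more UMIs of each gene after thinning to 1000 UMIs (bars of 738 Treg cells stand left of those of 1108 Tconv cells); the panels have different axes. The Ccr7 bar reaches 17.5% in Treg and 35.7% in Tconv, and cells with 3 or more S1pr1 UMIs make up 5.69% of Treg and 5.14% of Tconv.

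Cxcr5 (chromosome 9, 44511787 to 44561877, minus strand), the follicle receptor, was the 1 gene at least 2-fold higher in Treg. It had 46 UMIs in 30 Treg cells and 20 UMIs in 14 Tconv cells, or 31.3 CPM in Treg (22.9 to 41.8) and 9.99 CPM in Tconv (6.10 to 15.4). The log2 ratio was 1.65 (0.86 to 2.49), at the 97th percentile of all genes measured. The top cell held 10.9% of the UMIs in Treg and 15.0% in Tconv. Cxcr5 overlaps Bcl9l on the opposite strand, and the strand of counting is not stated, which leaves its value uncertain. B cells also use Cxcr5, and the 20 thinned Treg cells with Cxcr5 held the B cell list at 2250 CPM, against 616 CPM in those without, with all 45 UMIs of the list in 2 of the 20 cells. Of its UMIs, 3 in Treg and 2 in Tconv lay in cells of other types, and without these cells the log2 ratio was 1.78.

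Cxcr4 (chromosome 1, 128588199 to 128592293, minus strand) counted 64 UMIs in Treg and 67 in Tconv, which are 43.6 CPM in Treg (33.6 to 55.7) and 33.5 CPM in Tconv (25.9 to 42.5). Its log2 ratio of 0.38 had an interval that held 0 (-0.14 to 0.90). It was 1.17 in cells thinned to 1000 UMIs, where Treg kept 42 UMIs and Tconv 28, so Cxcr4 passed 2-fold there. Without cells of other types the ratio was 0.52. The B cell list stood at 1800 CPM in Treg cells with Cxcr4, against 603 CPM in those without, from 2 of 35 cells, and a UMI of the list was in 5.71% of Treg cells with Cxcr4 and 5.83% of those without. In Tconv it stood at 929 CPM with Cxcr4, from 1 of 28 cells, against 160 CPM without.

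Cxcr6 (chromosome 9, 123806475 to 123811760, plus strand), the receptor for CXCL16, had 0 UMIs in Treg and 61 UMIs in 25 Tconv cells. With the Treg library placed at a floor of 3 counts, it was at least 14.9-fold lower, and the exact 95% interval of the ratio began at 11.8-fold lower. None of 816 Treg cells had a UMI, which by the same floor allows a share of up to 0.368% of cells with one, and by the exact 95% binomial interval up to 0.451%. Of the 9 genes Cxcr6 had the most UMIs per positive cell in Tconv, 2.44, and 9 of the 25 cells held at least 3. Without cells of other types the log2 bound was -3.65, against -3.90 with them. It was -2.96 in cells thinned to 1000 UMIs, where Tconv kept 35 UMIs, -2.11 in cells thinned to 500, where it kept 21, and -2.61 with at most 1 UMI per cell, which leaves 25. A floor of 3 counts set against fewer UMIs gives a smaller bound by construction. The gene lies within Fyco1 on the opposite strand, which counted 34 UMIs in Treg and 27 in Tconv.

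Cxcr3 (chromosome X, 101731535 to 101734269, minus strand), the receptor for the interferon-induced chemokines CXCL9 and CXCL10, counted 35 UMIs in Treg and 33 in Tconv. Its level was 23.8 CPM in Treg (16.6 to 33.2) and 16.5 CPM in Tconv (11.3 to 23.1), and the interval of its log2 ratio of 0.53 held 0 (-0.20 to 1.26). No Cxcr3 UMI lay in the 56 Treg library cells of other types, and 2 of 31 such Tconv library cells held it. Ccr4 (chromosome 9, 114490316 to 114504916, minus strand), the receptor for CCL17 and CCL22, was at 24.5 CPM in Treg (17.2 to 33.9) and 24.0 CPM in Tconv (17.7 to 31.8). Its log2 ratio of 0.03 (-0.63 to 0.69) changed sign with scaling and thinning. Ccr6 (chromosome 17, 8236043 to 8257141, plus strand), the CCL20 receptor, had 16 UMIs in 11 Treg cells, 4 of them in 1 cell, and 2 UMIs in 2 Tconv cells. Its log2 ratio was 3.45 with a wide interval (1.36 to 6.61).

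Summed over the tissue set Treg counted 87 UMIs and Tconv 144, with the log2 ratio at -0.28 (-0.68 to 0.11). Without Cxcr6 the log2 ratio was 0.52 (0.07 to 0.97). The sign of the summed set was thus that of Cxcr6.

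Whether lymphoid and tissue homing transcripts exclude each other was read cell by cell after thinning. In Treg, 41 of 738 cells held a tissue set UMI, and 46.3% of them (30.7 to 62.6) held a lymphoid set UMI, against 50.2% (46.4 to 54.0) of cells without a tissue set UMI. In Tconv, 60 of 1108 cells held a tissue set UMI, and 55.0% of them (41.6 to 67.9) held a lymphoid set UMI, against 69.5% (66.6 to 72.2) of the rest. The number of cells with both was 0.93 times that expected from independent detection in Treg and 0.80 times in Tconv. Cells with both sets were found in each library, and the intervals of the shares overlapped in both. The overlap in Tconv was narrow and was lost with Klf2 left out of the lymphoid set. There the Tconv share was 36.7% (24.6 to 50.1) with a tissue set UMI and 57.3% (54.3 to 60.4) without. In Treg these shares were 34.1% (20.1 to 50.6) and 34.9% (31.3 to 38.5). A missing UMI does not show that a transcript is absent at this depth.

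**Figure D3:**
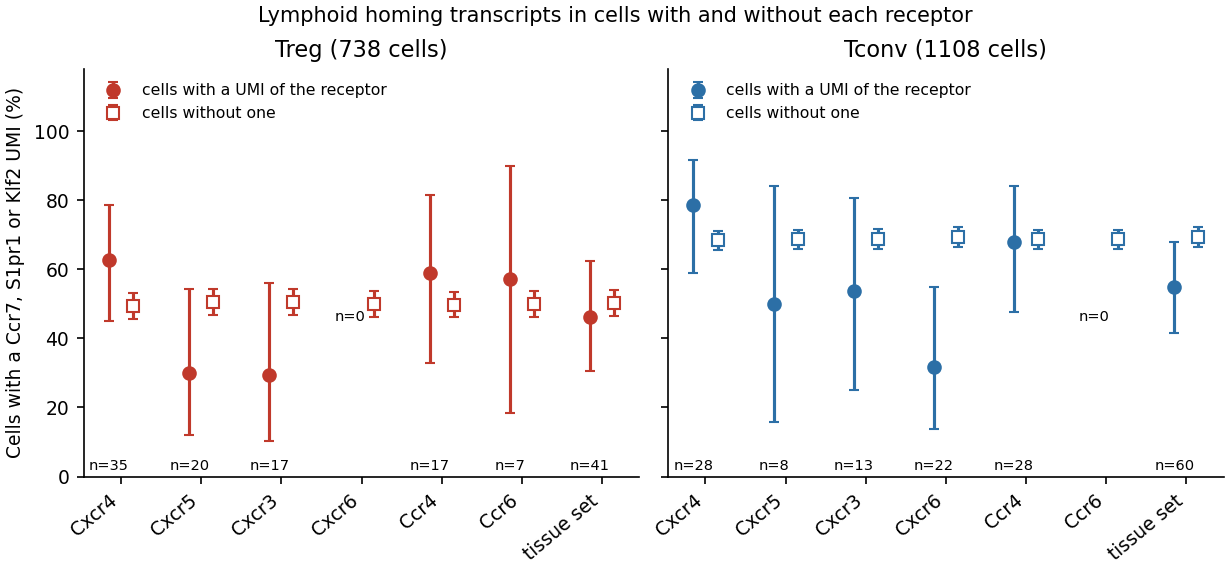
Share of cells, in percent, with a UMI of Ccr7, S1pr1 or Klf2 among thinned cells with (filled circles) and without (open squares) a UMI of each receptor or of the tissue set, Treg left and Tconv right; bars are exact 95% binomial intervals and n is the number of cells with the receptor. The widest gap is that of Cxcr6 in Tconv, 31.8% in cells with it and 69.4% in cells without it.

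In Tconv, a lymphoid set UMI was in 31.8% (13.9 to 54.9) of 22 cells with Cxcr6, against 69.4% (66.6 to 72.2) of cells without Cxcr6. Of these 22 cells 1 held Ccr7, where 7.86 were expected, and 1 held S1pr1, where 6.69 were expected. Klf2 was the exception, seen in 6 of them where 6.67 were expected. Unthinned, 2 of the 25 cells held Ccr7, 5 held S1pr1 and 8 held Klf2.

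Values for Cxcr3 rest on fewer cells. Of 17 thinned Treg cells with Cxcr3, 0 held Ccr7, where 2.97 were expected, and 0 held Klf2, where 4.65 were expected, while 5 held S1pr1, where 3.71 were expected. Unthinned, 3 of 24 held Ccr7, 5 held Klf2 and 6 held S1pr1. In Tconv, 1 of 13 thinned cells with Cxcr3 held Ccr7, where 4.65 were expected. For Cxcr5, 0 of 20 thinned Treg cells with Cxcr5 held Ccr7, where 3.50 were expected, and 2 of 30 did unthinned. The interval of the Ccr7 share in cells with the receptor overlapped that in cells without it for Cxcr3 in Treg (0 to 19.5% with, 15.2 to 20.9% without), for Cxcr3 in Tconv (0.195 to 36.0% with, 33.2 to 39.0% without) and for Cxcr5 in Treg (0 to 16.8% with, 15.2 to 21.0% without). That of Klf2 in Treg cells with Cxcr3 did not overlap (0 to 19.5% with, 24.8 to 31.4% without). For Ccr4 and Cxcr4 the intervals of cells with and without the receptor overlapped. Among cells with Ccr4 the lymphoid share was 58.8% (32.9 to 81.6) in Treg, against 49.8% (46.1 to 53.5) in Treg cells without it, and 67.9% (47.6 to 84.1) in Tconv, against 68.7% (65.8 to 71.5) in Tconv cells without it. Among cells with Cxcr4 it was 62.9% (44.9 to 78.5) in Treg, against 49.4% (45.6 to 53.1) in Treg cells without it, and 78.6% (59.0 to 91.7) in Tconv, against 68.4% (65.6 to 71.2) in Tconv cells without it.

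Some tissue and follicle receptors met in the same cells. In Tconv, 3 thinned cells held both Cxcr3 and Cxcr6, where 0.258 were expected, and 1 of the 3 was marked as another cell type. In Treg, 3 held both Cxcr3 and Cxcr5, where 0.461 were expected, and 6 of the 24 unthinned Treg cells with Cxcr3 held Cxcr5. These are few cells of 1 library each.

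Within the lymphoid set, all 3 genes were detected in 16 thinned Treg cells, where 7.70 were expected, and in 44 thinned Tconv cells, where 36.5 were expected. S1pr1 and Klf2 met in 61 Treg cells, where 44.1 were expected, and in 105 Tconv cells, where 102 were expected. Klf2 was held by 37.9% of Treg cells with S1pr1 (30.4 to 45.9), against 24.4% of Treg cells without it (21.0 to 28.2). In Tconv these shares were 31.2% (26.2 to 36.4) with S1pr1 and 30.0% (26.7 to 33.3) without it. Ccr7 and Klf2 met in 45 Treg cells, where 35.3 were expected, and in 137 Tconv cells, where 120 were expected. Ccr7 and S1pr1 met in 33 Treg cells, where 28.1 were expected, and in 110 Tconv cells, where 120 were expected. Whether the libraries differ in this was not tested.

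Read by Klf2 level, S1pr1 was found in 18.7% of Treg cells with 0 Klf2 UMIs (15.4 to 22.2), in 28.5% of those with 1 (21.1 to 36.8), in 37.5% of those with 2 (21.1 to 56.3) and in 30.3% of those with 3 or more (15.6 to 48.7). Ccr7 was found in 15.7%, 21.2%, 21.9% and 27.3% of the same Treg cells. In Tconv the S1pr1 shares were 30.1%, 29.8%, 35.5% and 31.0%, and the Ccr7 shares 33.5%, 42.2%, 38.2% and 38.1%, in the same order of Klf2 UMIs. The intervals of the groups with 2 or more Klf2 UMIs, of 32 and 33 Treg cells, overlap those of the other groups.

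Across cells of 1 library, the genes most like each member by Pearson correlation of log2(UMIs + 1) were weakly so. In the 738 thinned Treg cells Ccr7 was most like Tcea1 (0.146), Rtf1 (0.132) and Gsk3a (0.124), S1pr1 most like Atp1b3 (0.170), Ehd3 (0.159) and Phf1 (0.137), and Klf2 most like Samhd1 (0.142) and B230208H11Rik (0.135). In the 1108 thinned Tconv cells Ccr7 was most like Arl5c (0.126), Jtb (0.105) and Cnp (0.105), S1pr1 most like Rcsd1 (0.122), Tmem128 (0.117) and Smg1 (0.117), and Klf2 most like Skap1 (0.122), Sfxn3 (0.119) and Klf6 (0.111). All these cells share a library and a depth, and in counts this sparse such values are no finding.

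Cells were then grouped by UMIs of an effector list of 18 genes (S100a4, S100a6, Lgals1, Ahnak, Itgb1, Ccl5 and others), a range and not a cell type. With 0 to 1, 2 to 4 and 5 or more of its UMIs there were 310, 271 and 157 Treg cells and 630, 385 and 93 Tconv cells. The limits cut through a continuum, with 159 Treg and 335 Tconv cells at 1 UMI and 119 Treg and 196 Tconv cells at 2. The tissue set was highest in the last group, at 38.7, 40.6 and 159 CPM in Treg and 28.6, 67.5 and 387 CPM in Tconv, low to high.

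Cxcr3 was highest in the last group in both libraries, at 6.45, 11.1 and 95.5 CPM in Treg and 1.59, 7.79 and 129 CPM in Tconv. Cxcr6 stood at 7.94, 28.6 and 204 CPM in Tconv and at 0 in every group of Treg cells, also in those with the most effector UMIs, where the interval reached 23.5 CPM. Cxcr5 stood at 16.1, 40.6 and 70.1 CPM in Treg and at 1.59, 10.4 and 75.3 CPM in Tconv. The Cxcr5 log2 ratio was 3.35 (0.19 to 8.91) with 0 to 1 effector UMIs and 1.97 (0.21 to 4.07) with 2 to 4. In cells with 5 or more it was -0.10 (-1.60 to 1.50), from 11 Cxcr5 UMIs in Treg and 7 in Tconv. That interval is too wide to show that the libraries were alike there. Ccr4 did not rise with effector UMIs in Treg, at 29.0, 22.1 and 12.7 CPM, but rose in Tconv, at 19.0, 31.2 and 53.8 CPM. These Ccr4 values come from 2 to 12 UMIs a group, with wide intervals. Thinned Tconv cells with Ccr4 held the effector list at 3464 CPM, against 1841 CPM in those without (0.91, 0.60 to 1.21). In Treg these levels were 3647 CPM and 3476 CPM (0.07, -0.32 to 0.43).

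The lymphoid set changed less, at 1097, 1203 and 898 CPM in Treg and 1486, 1483 and 1344 CPM in Tconv. Ccr7 was lower in Treg within each group of cells, with log2 ratios of -0.94 (-1.30 to -0.59), -1.36 (-1.81 to -0.93) and -0.76 (-1.49 to -0.03). S1pr1 was close between the libraries in the first and second groups, at -0.14 (-0.45 to 0.16) and 0.01 (-0.32 to 0.33), and lower in Treg in the third, at -1.01 (-1.65 to -0.38). In that group it stood at 261 CPM in Treg and 527 CPM in Tconv. Klf2 intervals touched or held 0 in all 3 groups.

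**Figure D4:**
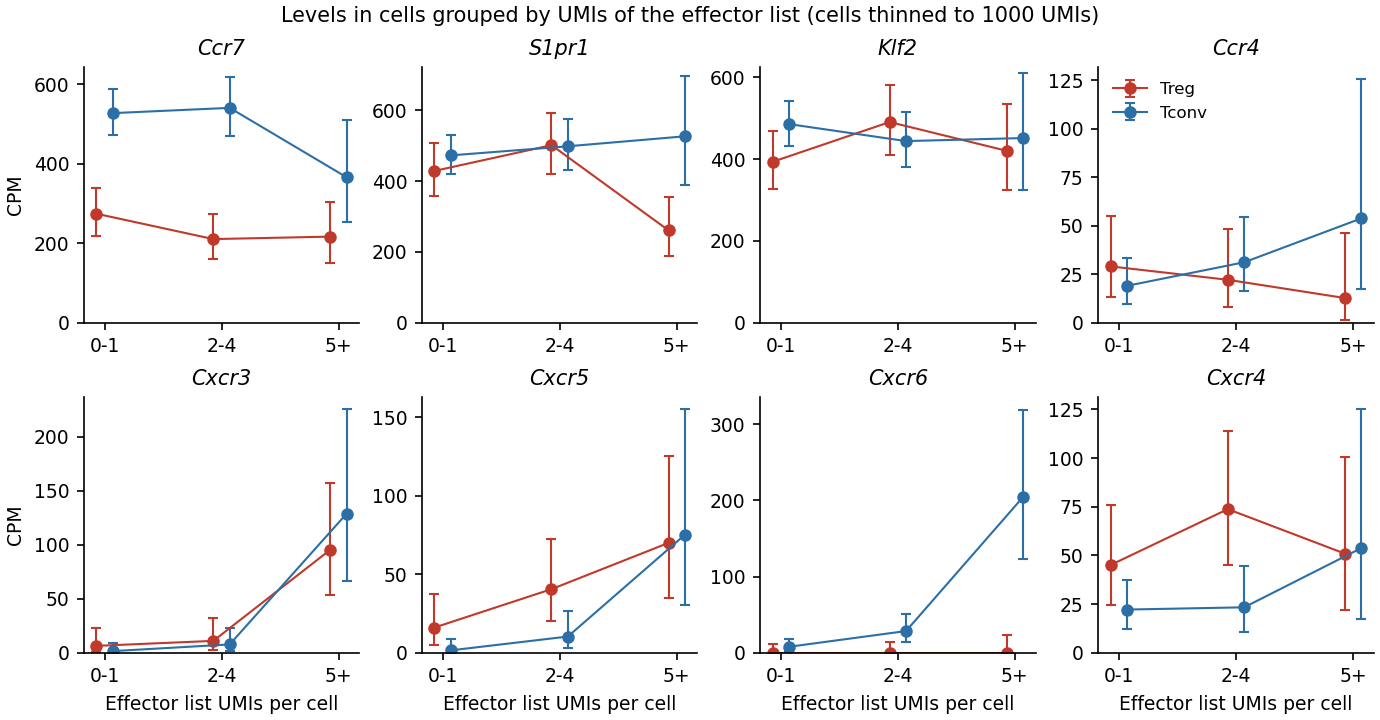
CPM of 8 genes in thinned cells with 0 to 1, 2 to 4 and 5 or more UMIs of the effector list, Treg in red and Tconv in blue; bars are exact 95% Poisson intervals. Ccr7 in Treg stays below Tconv in each group, and Cxcr3 reaches 95.5 CPM in Treg and 129 CPM in Tconv in the last group.

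The cells that held each receptor were described by marker lists. A T lineage UMI was in 100% of Cxcr3 cells in both libraries and of Cxcr6 cells in Tconv. It was in 94.1% of Cxcr4 cells and 90.9% of Ccr6 cells in Treg, and in 1 of the 2 Ccr6 cells in Tconv. Even after thinning, 96.9% of Treg cells and 98.9% of Tconv cells without Cxcr3 held one, so it does not set receptor cells apart. Of the Tconv cells, 2 of 22 with Cxcr3 and 3 of 25 with Cxcr6 were marked as other cell types. The 17 thinned Treg cells with Cxcr3 held the effector list at 10882 CPM, against 3305 CPM in those without, a log2 ratio of 1.72 (1.50 to 1.94), and the Treg list at 5706 CPM against 3619 CPM (0.66, 0.35 to 0.95). The 13 thinned Tconv cells with Cxcr3 held the effector list at 7462 CPM against 1816 CPM (2.04, 1.73 to 2.33). They also held the Treg list at 1231 CPM against 288 CPM, and 0 of the 22 Tconv cells with Cxcr3 before thinning held Foxp3, while 13 of the 24 such Treg cells did. Likewise the 8 thinned Tconv cells with Cxcr5 held the Treg list at 1875 CPM against 287 CPM (2.71, 1.85 to 3.45), and 0 of 14 before thinning held Foxp3, while 16 of the 30 Treg cells with Cxcr5 did.

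Tconv cells with Cxcr6 held the effector list at 6182 CPM, against 1795 CPM in those without (1.78, 1.52 to 2.04), and the naive or resting list, with Lef1, Tcf7 and Il7r among its genes, at 2909 CPM against 5236 CPM (-0.85, -1.23 to -0.49). Of the 25 before thinning, 9 (36.0%) held a UMI of the innate-like T list and 4 held Zbtb16, the PLZF factor of innate-like T cells. After thinning 4 of 22 (18.2%) held a UMI of that list, against 3.22% of Tconv cells without Cxcr6. The B cell list stood at 909 CPM in the 22 thinned cells with Cxcr6, against 165 CPM in those without, from 2 of the 22. The plasmacytoid dendritic cell list, part of whose genes T cells also express, stood at 864 CPM in them, against 167 CPM in those without (2.37, 1.61 to 3.06), from 10 of the 22. Among the 8 Tconv library cells marked by that list 37.5% held Cxcr6, against 1.73% of Tconv library cells marked by none. These 3 cells held 7 of the 61 Cxcr6 UMIs, and 54 were left without cells of other types. Cells with Ccr7 held less of the effector list than cells without it, at 2860 CPM against 3611 CPM in Treg (-0.34, -0.50 to -0.18) and 1571 CPM against 2055 CPM in Tconv (-0.39, -0.53 to -0.25). The B cell list stood at 15.5 CPM in Treg cells with Ccr7, against 796 CPM in those without, and a UMI of it was in 1.55% of Treg cells with Ccr7 and 6.73% of those without. In Tconv it stood at 50.5 CPM with Ccr7 against 251 CPM without, and a UMI of it was in 1.26% and 1.69% of these cells. Treg cells with Klf2 held the resting list at 4084 CPM, against 3174 CPM in those without (0.36, 0.24 to 0.48), and Tconv cells at 5229 CPM against 5172 CPM (0.02, -0.07 to 0.10).

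The wider homing and chemokine list held 105 genes, of which 69 had at least 20 UMIs. Of these 8 (11.6%) were at least 2-fold higher in Treg and 2 (2.90%) lower, where all genes gave 8.61% and 3.60%, with a median log2 ratio of 0.23. Among adhesion genes Itgae, the CD103 chain that binds E-cadherin of epithelia, counted 43 UMIs in Treg against 2 in Tconv, with the log2 ratio at 4.87 (2.93 to 7.97), and Itgb1 stood at 1.69 (1.46 to 1.92). Among transcription factors Id3 was at 2.06 (1.82 to 2.30), Klf10 at 1.67 (0.76 to 2.65), Gata3 at 1.10 (0.85 to 1.36) and Bcl6, the factor of follicular T cells, at 1.06 (0.22 to 1.92). P2ry10, a receptor for lysophospholipids, was at 1.65 (1.14 to 2.17) and the chemokine Ccl5 at 1.14, with a lower bound of 0.32. With 5 of the 8 left under TMM scaling and 3 with at most 1 UMI per cell, the number higher in Treg depended on scaling and counting. With at most 1 UMI per cell the median of all genes also moved, to -0.14, and 66 genes of the list kept at least 20 UMIs. How much of the fall to 3 came from cells with many UMIs was not tested.

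Both genes lower in Treg belong to receptor signalling. Pik3r5, the p101 subunit that couples PI3-kinase gamma to G proteins, counted 39 UMIs in Treg against 132 in Tconv, with the log2 ratio at -1.31 (-1.87 to -0.79). Adrbk2, a receptor kinase, counted 5 UMIs in Treg against 19 in Tconv, of which 9 lay in cells of other types. The median of the 30 signalling genes measured was 0.09. That of the 13 other receptors measured was 0.63, with 1 of them at least 2-fold higher in Treg and 0 lower. Gpr183 and S1pr4, of the lymphoid route, did not reach 2-fold and leaned lower in Treg, unlike this median. Gpr183, the oxysterol receptor, was at -0.28 (-0.61 to 0.05) and S1pr4 at -0.20 (-0.51 to 0.10), and Foxo1, a known activator of Klf2, was at 0.14 (-0.01 to 0.28). At 0 in both libraries were 11 genes of the list, among them Ccl3, Ccl4 and Gpr15.

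**Figure D5:**
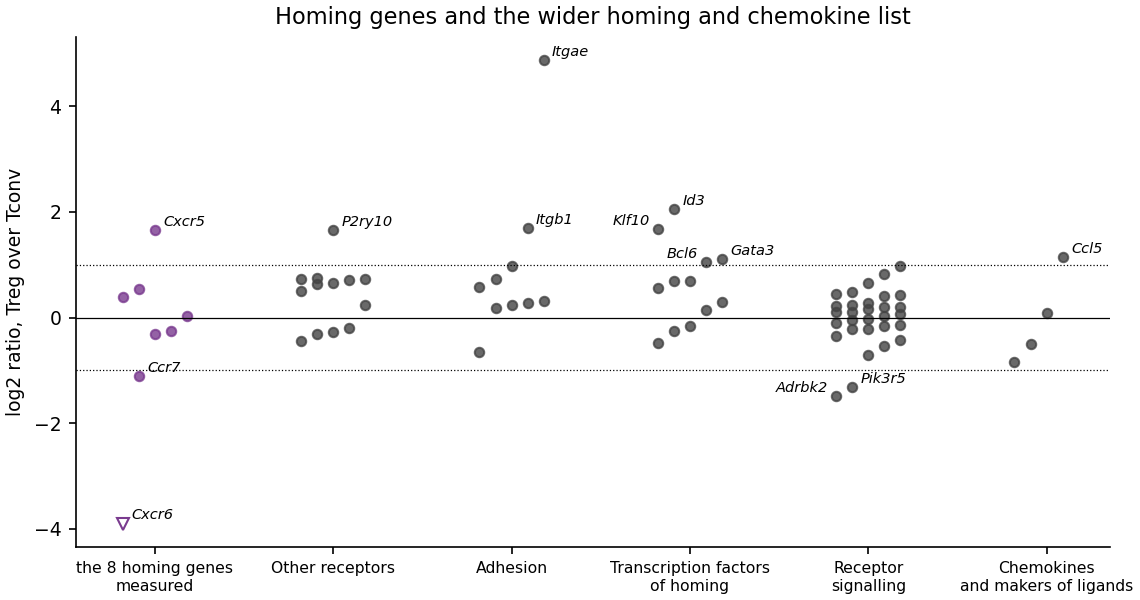
log2 ratio, Treg over Tconv, of the 8 homing genes measured and of the 69 measured genes of the wider list by role; dotted lines mark 2-fold, genes past it are named, and the open triangle is the Cxcr6 bound at -3.90. Itgae lies highest at 4.87, and 59 of the 69 genes lie within the lines.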

How the data were processed

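Per the labels' protocols, spleen cells were sorted, encapsulated with inDrops, primed with oligo dT and sequenced. The authors deposited whole-number UMI counts per gene and cell. SAMtools, TopHat2 and the build mm10 are named in the submitters' processing notes. Information on the UMI counter, its strand setting and cell filters is not given in the sources used here. UMI counts were summed per library (816 Treg and 1300 Tconv cells) and given as CPM with exact Poisson intervals. Ratios have exact conditional intervals and shares exact Clopper-Pearson intervals, at 95%, with a floor of 3 counts for a library at 0. Shares per cell used cells with at least 1000 UMIs, thinned to 1000, which left out 78 Treg and 192 Tconv cells. The plasmacytoid dendritic list was used without Bst2, Tcf4 and Ly6c2 to mark cells of other types. Such cells and doublets were kept; scrublet (scanpy 1.11.5) marked 1 Treg and 12 Tconv cells. TMM factors came from edgeR 4.0.16. The calculations were tested on simulated data. The labels give 1 library per group, so cells served as no replicates and no test was run. Gene positions were taken from GENCODE on GRCm38, which is mm10.

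The members and lists were chosen with earlier results of these data known. Named were the 9 genes, Foxp3 as a check, genes of the wider list past 2-fold (up to 12 each way), the 3 most alike genes per member seen in at least 50 cells, and overlapping genes. Some genes that this rule names are not reported here. Markers of other types were most abundant as Cd74 (B cell), Lyz1 (myeloid), Ly6c2 (plasmacytoid dendritic) and Cd8b1 (CD8 or NK) in both libraries, Txndc5 in Treg and Jchain in Tconv (plasma cell), Hba-a2 (erythroid) and Ppbp in Treg (platelet). Gpr183, S1pr4, Foxo1, Ccl3, Ccl4, Gpr15 and Zbtb16 were named after their values were seen. Alternatives covered scaling, depth, cell weight, cells of other types, doublets, UMIs per cell and the minimum count.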

Additional observations from a re-analysis of the deposited data

How the results depend on the processing

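No paired analysis was possible because each group was 1 library. For the lymphoid set the log2 ratio was -0.65 with ribosomal protein genes left out of the totals, -0.67 with TMM factors and -0.74 with at most 1 UMI of a gene per cell, lower in Treg each time. In the last of these settings the median of all genes was -0.14, against 0.14 in the main one. Over all alternatives it ran between -0.74 and -0.43, and the tissue set between -0.43 and -0.01. At least 2-fold higher in Treg were 2 members in cells thinned to 1000 UMIs and 2 with a minimum of 1 UMI, and 1 member was lower in cells thinned to 500 UMIs. Of the wider list, 5 genes were higher with TMM factors, 3 with at most 1 UMI per cell and 19 with a minimum of 1 UMI. Lower were 1 in cells thinned to 1000 or to 500 UMIs, 1 without cells of other types, 1 with a minimum of 50 UMIs and 7 with a minimum of 1 UMI. Thinned to 500 UMIs, the share of cells with S1pr1 at 3 or more Klf2 UMIs was 2.79 times that at 0 in Treg, and the share with Ccr7 1.66 times in Tconv, against 1.62 and 1.13 at 1000 UMIs. At the same depth, cells with 5 or more effector UMIs differed from those with 0 to 1 by a log2 ratio of -1.01 in Treg and -1.20 in Tconv for the lymphoid set, against -0.29 and -0.14 at 1000 UMIs, and by 3.40 in Treg and 4.95 in Tconv for the tissue set, against 2.04 and 3.76. The limits in UMIs were the same at both depths, so at 500 UMIs they ask for a larger share of a cell's UMIs. The depths thus do not compare the same groups of cells, and the cause of the differences was not tested. Cells with both sets over those expected came to 1.12 in Treg when thinned to 500 UMIs, and to 1.03 with Cxcr5 in the lymphoid set or Cxcr4 in the tissue set. In Tconv they stayed between 0.65, with Klf2 left out of the lymphoid set, and 0.90. Member genes other than Ccr4 kept the sign of their ratio under all alternatives run. These recount the same libraries and are no replicate check. Cxcr6 had 0 UMIs in Treg in each of them, and thinned Ccr6 had 0 in Tconv, so these signs rest on the floor of 3 counts. For Cxcr3 and Cxcr4 the main interval held 0. Depth limits Cxcr6, whose bound moves with the Tconv UMIs left.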
